A study of Homo sapiens with 2 samples.

Results

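The genes described here encode the enzymes that make serine, the mitochondrial one-carbon units drawn from it, asparagine and cysteine. They are 10 genes of the 18392 genes read by the arrays, listed by name with earlier results of these data known. PHGDH, PSAT1 and PSPH stand for serine synthesis, and SHMT2, MTHFD2, MTHFD1L and ALDH1L2 for mitochondrial one-carbon metabolism. ASNS stands for asparagine, and CTH and CBS for cysteine. All probe sets that the platform annotation ties to them were taken, 26 in all, of which 23 name 1 gene and 3 name a member together with 2 other genes. The series measured RNA of PC3 cells, a human line that grew out of a prostate cancer metastasis in bone and is used as a model of castration-resistant disease. One group was treated with fluphenazine at 10 µM, a phenothiazine antipsychotic that blocks dopamine receptors, and the other received the solvent DMSO. There was 1 array per group, both from the same line grown with fetal bovine serum. The sources used here do not give how long the cells were treated.

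With 1 array per group no spread between cultures could be estimated, so no test, standard error or p-value accompanies any value below. Values are the authors' deposited log2 signals per probe set, and a difference is the fluphenazine value minus the DMSO value of the same probe set. The labels name the WT PLUS kit for labelling, which is made for whole-transcript arrays, while the probe sets are those of an array design that reads transcripts near their 3′ end; what this does to any signal was not tested. As a measure of noise within the arrays, the differences given by several probe sets of a gene had a pooled SD of 0.13 over 3668 genes; this leaves out the variation between cultures. A gene was counted as above the expression floor when its value on at least 1 array reached 6.19, the level that splits all genes into equal parts by their higher value, and 9196 genes did. The floor is a rank and not a call of detection. Among genes above the floor, 4.84% were at least 1.2-fold higher with fluphenazine and 4.69% at least 1.2-fold lower, and the median difference was -0.01. The median log2 signal was 4.73 on the fluphenazine array and 4.74 on the DMSO array. The epithelial markers KRT8, KRT18, KRT19 and EPCAM were all above the floor on both arrays, with KRT8 at -0.42. The 2 probe sets of KRT19 gave -0.43 and -0.08. Of 11 markers of blood, endothelial and fibroblast cells, 9 were under the floor. The exceptions were PECAM1, at 8.49 with fluphenazine and 8.76 with DMSO, and COL1A1, at 8.33 on both arrays. Of 3 measured genes of the androgen receptor axis, KLK3 and TMPRSS2 were above the floor, at -0.03 and 0.12, and KLK2 was under it. The 3 probe sets of KLK3 ran from -0.03 to 0.57 and the 4 of TMPRSS2 from 0.04 to 0.44. Bacterial poly-A spike-in controls, added before labelling, were lower on the fluphenazine array at all 24 probe sets, by a median of -0.22. By position the medians were -0.34 at the 5′ end, -0.16 in the middle and -0.12 at the 3′ end. In the same order, the control probe sets of ACTB gave -0.13, -0.17 and -0.003, and those of GAPDH gave 0.06, -0.02 and 0.03. The part of these differences in the results below was not tested.

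Serine is made from the glycolytic intermediate 3-phosphoglycerate by an oxidation, a transamination and a dephosphorylation. Its side-chain carbon is then passed to tetrahydrofolate, which carries it as a one-carbon unit for nucleotide synthesis, and in mitochondria these units can leave as formate or be burned to yield NADPH. Serine also supplies the backbone of cysteine through the transsulfuration pathway, and asparagine is made from aspartate with nitrogen from glutamine. Many genes of these routes are known targets of ATF4, the transcription factor whose translation rises when amino acids are short or the endoplasmic reticulum is stressed.

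All 7 members above the floor had higher signal with fluphenazine, where 48.2% of all genes above the floor did. They were CTH, ASNS, PSAT1, MTHFD2, SHMT2, PSPH and PHGDH in order of their differences, and each was above the floor on both arrays. Of these, 4 were at least 1.2-fold higher (CTH, ASNS, PSAT1 and MTHFD2), against the background of 4.84%, and 2 were at least 1.5-fold higher (CTH and ASNS), against 0.283%. The median difference of the 7 members was 0.39 on the log2 scale, beside -0.01 for all genes above the floor. This rests on the brightest probe set of each gene. With all probe sets of a gene averaged, dim ones included, the floor was set anew on the averaged values, and CBS then lay above it. The median was then 0.18 over 8 members, of which 3 were at least 1.2-fold higher, beside -0.02 and 3.56% for all genes. The other 3 members, MTHFD1L, ALDH1L2 and CBS, lay under the main floor of 6.19 on every probe set that names them alone. Because the members were chosen with earlier results of these data known, these comparisons with all genes are descriptive and give no independent support. The plot of member probe sets on both arrays shows each value.

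**Figure D1:**
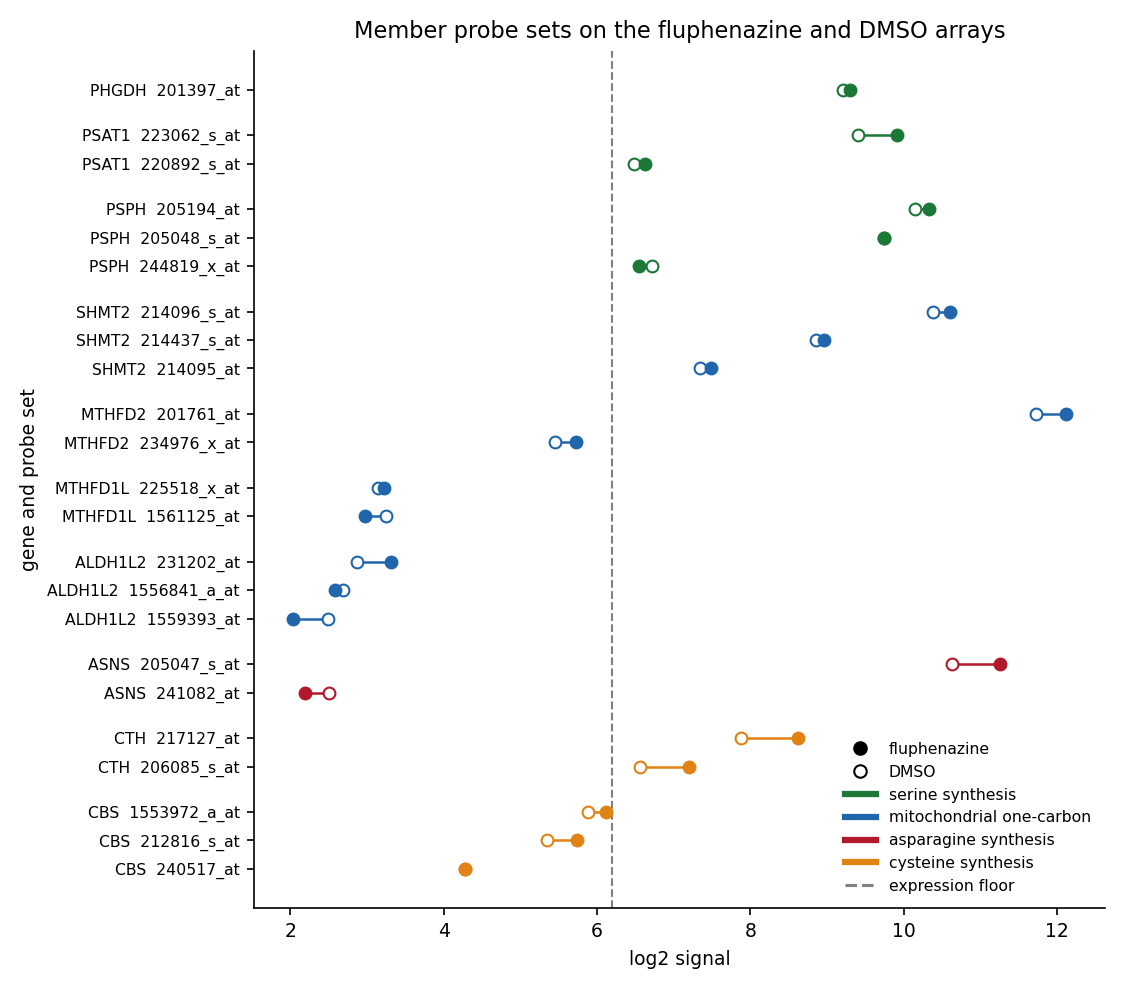
Log2 signal (horizontal axis) of the 23 probe sets that name 1 member gene, by gene and probe set (vertical axis), with filled circles for fluphenazine, open circles for DMSO and the dashed line at the expression floor of 6.19. The filled circle lies to the right of the open one by at least 0.39 for the brightest probe sets of CTH, ASNS, PSAT1 and MTHFD2, while probe sets under the floor lie on either side.

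Promoter sequence is shown for the 4 members past 1.2-fold and, for contrast, for PHGDH, whose difference was the smallest above the floor. Each run is the 150 bases before the annotated transcription start, 5′ to 3′ on the strand of the gene, from RefSeq on GRCh38.p14. Capitals mark matches to 2 motifs on either strand: TGATGNAA, the core of the amino acid response element that ATF4 binds with C/EBP partners, and CCAAT, the box bound by NF-Y. For ASNS, which has 2 annotated windows, the one with the upstream start is shown.
CTH, chr1:70411118-70411267, plus strand: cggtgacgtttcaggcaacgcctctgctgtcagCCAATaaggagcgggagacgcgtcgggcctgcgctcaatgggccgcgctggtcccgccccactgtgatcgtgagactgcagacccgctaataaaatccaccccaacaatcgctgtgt
ASNS, chr7:97872409-97872558, minus strand: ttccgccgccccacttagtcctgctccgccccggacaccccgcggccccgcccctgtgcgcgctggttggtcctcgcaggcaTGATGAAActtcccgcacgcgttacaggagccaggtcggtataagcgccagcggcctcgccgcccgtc
PSAT1, chr9:78296975-78297124, plus strand: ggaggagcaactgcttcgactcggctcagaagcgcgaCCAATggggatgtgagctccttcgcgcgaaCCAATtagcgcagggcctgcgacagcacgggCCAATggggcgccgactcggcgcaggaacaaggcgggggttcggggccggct
MTHFD2, chr2:74198465-74198614, plus strand: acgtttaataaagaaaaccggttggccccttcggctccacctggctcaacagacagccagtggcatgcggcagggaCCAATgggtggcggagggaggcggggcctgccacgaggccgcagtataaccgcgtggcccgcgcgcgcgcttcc
PHGDH, chr1:119711784-119711933, plus strand: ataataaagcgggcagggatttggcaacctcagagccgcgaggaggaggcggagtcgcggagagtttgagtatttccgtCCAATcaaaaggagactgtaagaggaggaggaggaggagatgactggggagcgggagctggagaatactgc
The ASNS run holds TGATGAAA 68 bases before the start, the only match to TGATGNAA in these 5 runs. PSAT1 holds 3 CCAAT boxes, at 113, 83 and 52 bases before the start. The runs of CTH, MTHFD2 and PHGDH hold 1 CCAAT box each, at 117, 74 and 71 bases before it.

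Over windows of 250 bases before to 50 bases after the start, sequence was at hand for 7 members in 13 windows: PHGDH, PSAT1, MTHFD2, MTHFD1L, ASNS, CTH and CBS. TGATGNAA was found in 4 of the 13 windows, and in 3.62% of all 35116 windows in the table. The matches belong to 2 genes: ASNS in 1 window, and MTHFD1L in 3 windows that overlap and share 1 site, TGATGCAA at chr6:150866357-150866364. CCAAT was found in 9 of 13 windows, covering 6 of the 7 genes, and in 34.6% of all windows. The 9 include the 3 overlapping windows of MTHFD1L, which again share 1 site, at chr6:150866293-150866297. MTHFD2 holds another CCAAT box 184 bases before its start, outside the run printed above. CACGTG, the E-box that MYC and related factors bind, was found in 3 windows, all of MTHFD1L and again 1 shared site, and in 7.26% of all windows. TGACNNNGC, the core of the antioxidant response element, was found in 2 windows, of MTHFD2 and CBS, and in 13.3% of all windows. No match overlaps a match to another of these motifs. A match is a description of the letters and not a bound site. The windows of PSAT1, MTHFD2 and CTH hold no TGATGNAA, which says only that these letters are not there.

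**Figure D2:**
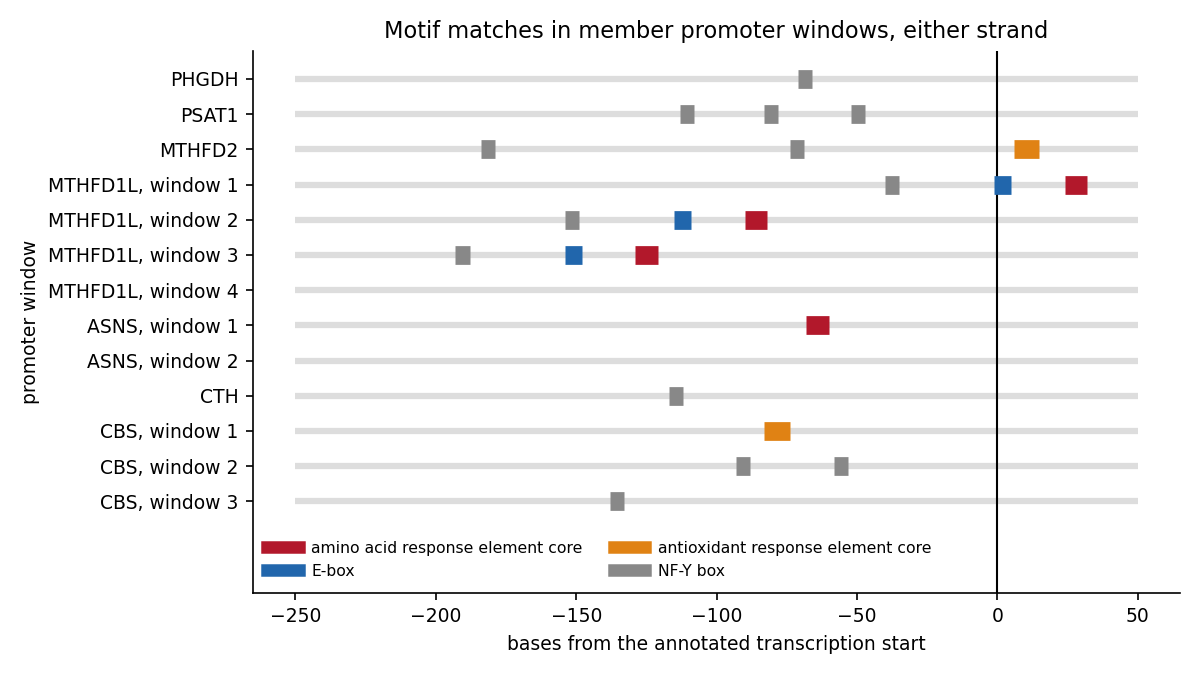
Matches to 4 motifs on either strand in the 13 promoter windows of 7 members (vertical axis), by distance in bases from the annotated transcription start (horizontal axis, vertical line at the start). The amino acid response element core appears upstream of ASNS and at 1 site shared by 3 overlapping windows of MTHFD1L. The NF-Y box (CCAAT) appears in 9 windows, of which the same 3 of MTHFD1L share 1 site.

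In serine synthesis the middle enzyme differed most. PSAT1, the aminotransferase that takes nitrogen from glutamate, had 9.92 with fluphenazine and 9.41 with DMSO on its brighter probe set, a difference of 0.51 or 1.42-fold. Its dimmer probe set had 6.62 with fluphenazine and 6.48 with DMSO, a difference of 0.15. Both probe sets of PSAT1 were higher with fluphenazine, but they differed from each other by 0.36. Among the 2403 genes with exactly 2 probe sets above the floor the median gap was 0.11, and 5.08% had a gap at least as wide as that of PSAT1. With both probe sets averaged it was 0.33.

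PHGDH, the dehydrogenase that commits 3-phosphoglycerate to serine, had 9.30 with fluphenazine and 9.21 with DMSO. Its difference of 0.09 was smaller than the pooled SD of 0.13 between probe sets of a gene, and it ranked 2333 among the 9196 genes. PSPH, the phosphatase that releases serine, was read by 3 probe sets above the floor. The brightest had 10.33 with fluphenazine and 10.14 with DMSO, a difference of 0.19. The second had 9.75 on both arrays, and the dimmest had 6.55 with fluphenazine and 6.71 with DMSO, a difference of -0.16. The probe sets of PSPH thus disagreed in direction, and their mean difference was 0.01. A pseudogene named after PSPH exists in RefSeq, as do 4 named after PSAT1, and the sources used here do not say whether the probes also read their transcripts.

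In mitochondrial one-carbon metabolism the 2 members above the floor were higher on every probe set above it. SHMT2, which splits serine into glycine and a one-carbon unit, had 10.61 with fluphenazine and 10.39 with DMSO on its brightest probe set, a difference of 0.23. The others gave 8.96 with fluphenazine and 8.86 with DMSO, and 7.49 with fluphenazine and 7.35 with DMSO. The 3 differences of SHMT2 thus ran from 0.10 to 0.23, none reaching 1.2-fold, and SHMT2 ranked 613 among the 9196 genes.

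MTHFD2, the dehydrogenase and cyclohydrolase of the next steps, had 12.12 with fluphenazine and 11.73 with DMSO, a difference of 0.39 or 1.31-fold. It ranked 132 among the 9196 genes. Its dim probe set, under the floor, had 5.73 with fluphenazine and 5.45 with DMSO, a difference of 0.28 in the same direction. RefSeq lists 7 pseudogenes named after MTHFD2.

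The enzymes at the outlets of the mitochondrial route were read poorly. MTHFD1L, which releases formate, had 3.23 with fluphenazine and 3.15 with DMSO on one probe set and 2.97 with fluphenazine and 3.24 with DMSO on the other. ALDH1L2, which oxidises the folate-bound unit to CO2, had 3.31 with fluphenazine and 2.87 with DMSO, 2.58 with fluphenazine and 2.69 with DMSO, and 2.03 with fluphenazine and 2.49 with DMSO. The signs were mixed in both genes, with differences from -0.27 to 0.08 for MTHFD1L and from -0.45 to 0.44 for ALDH1L2. Of all probe sets under the floor, 25.4% lay past 1.2-fold one way or the other. Another 2 probe sets name MTHFD1L together with 2 transcribed pseudogenes and cannot be assigned to it.

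Asparagine synthesis rests on 1 gene. ASNS, which moves an amide nitrogen from glutamine to aspartate, had 11.26 with fluphenazine and 10.63 with DMSO, a difference of 0.62 or 1.54-fold. It ranked 19 among the 9196 genes above the floor. The other probe set of ASNS was near the bottom of the signal range, at 2.19 with fluphenazine and 2.50 with DMSO. Its difference of -0.31 opposes the bright one, and averaging the 2 would put ASNS at 0.16. RefSeq lists 5 pseudogenes named after ASNS, and the ASNS promoter is the one printed above with TGATGAAA.

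In cysteine synthesis the second enzyme differed most of all members. CTH, which splits cystathionine to give cysteine, had 8.62 with fluphenazine and 7.88 with DMSO on its brighter probe set, a difference of 0.74 or 1.67-fold. The dimmer one had 7.19 with fluphenazine and 6.56 with DMSO, a difference of 0.63 or 1.55-fold. Both probe sets of CTH were thus more than 1.5-fold higher, and their gap of 0.11 was close to the median gap of 0.11 for genes with 2 probe sets above the floor. CTH ranked 15 among the 9196 genes.

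CBS, the preceding enzyme, which joins serine to homocysteine, lay just under the floor. Its brightest probe set had 6.11 with fluphenazine and 5.88 with DMSO, a difference of 0.23. The second had 5.73 with fluphenazine and 5.35 with DMSO, a difference of 0.38, and the dimmest had 4.27 with fluphenazine and 4.28 with DMSO. The 2 brighter probe sets of CBS were higher with fluphenazine and the dimmest differed by -0.01. Among all genes under the floor, 12.1% were at least 1.2-fold higher on their brightest probe set.

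Taken probe set by probe set, 13 of the 23 that name 1 member were above the floor. Of these 13, 11 were higher with fluphenazine, beside 47.2% of all 14668 such probe sets. At least 1.2-fold higher were 5 (both of CTH and 1 each of ASNS, PSAT1 and MTHFD2), beside a background of 4.96%, and none was 1.2-fold lower, beside 5.38%. Probe sets of a gene read the same transcripts and are not replicates. The 10 member probe sets under the floor were split evenly, with 5 higher and 5 lower and differences from -0.45 to 0.44. Of these 10, 3 were at least 1.2-fold higher and 3 at least 1.2-fold lower. That is 60% past 1.2-fold, beside 25.4% of all probe sets under the floor.

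**Figure D3:**
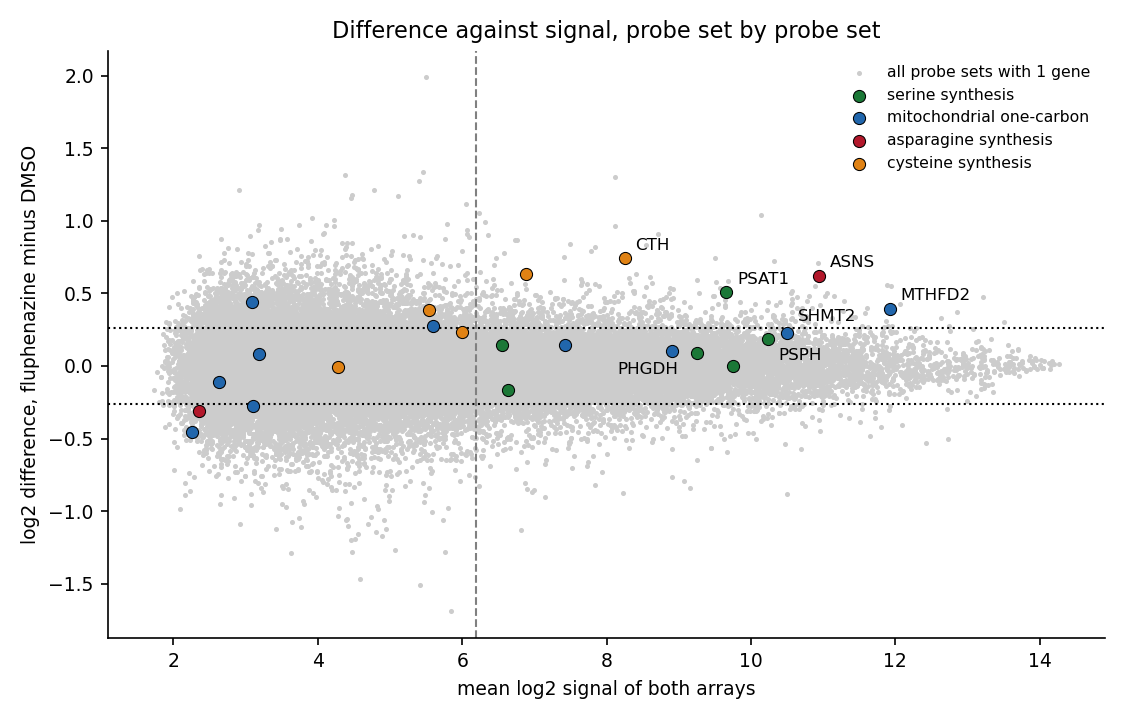
Log2 difference, fluphenazine minus DMSO (vertical axis), against the mean log2 signal of both arrays (horizontal axis) for all 37151 probe sets with 1 gene (grey) and the 23 member probe sets (coloured by pathway step; names mark the brightest probe set of each member above the floor). Dotted lines mark 1.2-fold and the dashed line the floor of 6.19. CTH, ASNS, PSAT1 and MTHFD2 stand above the upper dotted line at signals where few grey points do, and the dim member probe sets lie inside the wide grey band.

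The enzymes next to these steps were compared through 10 lists of 71 genes, of which 62 were measured and 47 were above the floor. With fluphenazine 18 of the 47 were higher and 29 lower, beside 4429 and 4759 of all 9196 genes above the floor. Their median difference was -0.04. Among these 47 a single gene reached 1.2-fold in either direction, beside 9.53% of all genes above the floor. It was CHAC1, an enzyme that breaks down glutathione and a known ATF4 target. On its only probe set CHAC1 had 7.04 with fluphenazine and 6.62 with DMSO, a difference of 0.42.

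The cytosolic counterparts of the mitochondrial folate enzymes gave no difference of that size above the floor. MTHFD1, the cytosolic trifunctional folate enzyme, had 10.90 with fluphenazine and 10.98 with DMSO, and its probe sets differed in sign, at -0.08 and 0.11. MTHFD2L is a mitochondrial paralogue of MTHFD2 and not a cytosolic form. It had 8.26 with fluphenazine and 8.13 with DMSO, and its 7 probe sets ran from -0.25 to 0.13. SHMT1 and ALDH1L1, the cytosolic forms of SHMT2 and ALDH1L2, were under the floor, at 3.51 with fluphenazine and 3.16 with DMSO, and at 5.80 with fluphenazine and 5.54 with DMSO. TYMS, the thymidylate synthase that consumes one-carbon units, differed by -0.15, and the median of the 2 genes of the cytosolic folate cycle above the floor, MTHFD1 and TYMS, was -0.11. Over all 5 measured genes of that list the median had the opposite sign, at 0.25. The 3 under the floor were higher with fluphenazine on their brightest probe sets: SHMT1 at 0.35, ALDH1L1 at 0.25 and FTCD at 0.75. The 2 probe sets of SHMT1 gave 0.09 and 0.35. Those of ALDH1L1 and FTCD disagreed in direction, with 2 from -0.20 to 0.25 and 6 from -0.28 to 0.75. Folate carriers and the other mitochondrial folate genes had a median of 0.05 over 11 genes, 7 of them higher. The carrier SLC46A1 had the largest difference at 0.24 and was above the floor only on the fluphenazine array. The 4 probe sets of SLC46A1 ran from -0.45 to 0.24, with a mean of -0.10. With the probe sets of each gene averaged, the median of this list was -0.03.

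Of the genes above the floor that use the products, CHAC1 was the only one past 1.2-fold. Under the floor MAT1A at 0.69, BHMT at -0.54 and CSAD at -0.48 were past it, where 24.1% of all genes under the floor were, in one direction or the other. The 3 probe sets of CSAD ran from -0.48 to 0.21, and MAT1A and BHMT rest on 1 probe set each. In purine synthesis, which uses one-carbon units, 5 of 6 genes were lower, beside 4759 of all 9196 genes above the floor. The median was -0.11, with PPAT, the first enzyme, at -0.22. In the methionine cycle 3 of 6 were higher and the median was 0.00, with methionine synthase MTR at 0.17. The 2 probe sets of MTR gave -0.02 and 0.17. All 5 genes of cysteine and sulfide breakdown above the floor were lower, with a median of -0.08 and the sulfide oxidase SQOR at -0.18. Apart from SQOR, their differences were smaller than the pooled SD of 0.13 between probe sets of a gene. In glutathione synthesis and turnover 4 of 6 were higher and the median was 0.13. The subunits of glutamate-cysteine ligase, GCLC and GCLM, which start glutathione synthesis from cysteine, were at 0.23 and 0.21. The 3 probe sets of GCLC ran from -0.01 to 0.25 and the 3 of GCLM from 0.18 to 0.21.

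The remaining lists were small. Glycine cleavage had 2 genes above the floor, both lower, with GCSH, its lipoyl carrier, at -0.07. For aspartate, asparagine and glutamine the median was -0.14 over 4 genes, with the glutamine synthetase GLUL at -0.19, although its 4 probe sets ran from -0.19 to 0.20. In proline synthesis 2 of 4 genes were higher, the median was 0.02, and PYCR3 was at -0.19, above the floor only on the DMSO array. SRR, the serine racemase, was at -0.17, and its 4 probe sets ran from -0.17 to 0.03. The plot of member steps and related lists shows every gene above the floor.

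**Figure D4:**
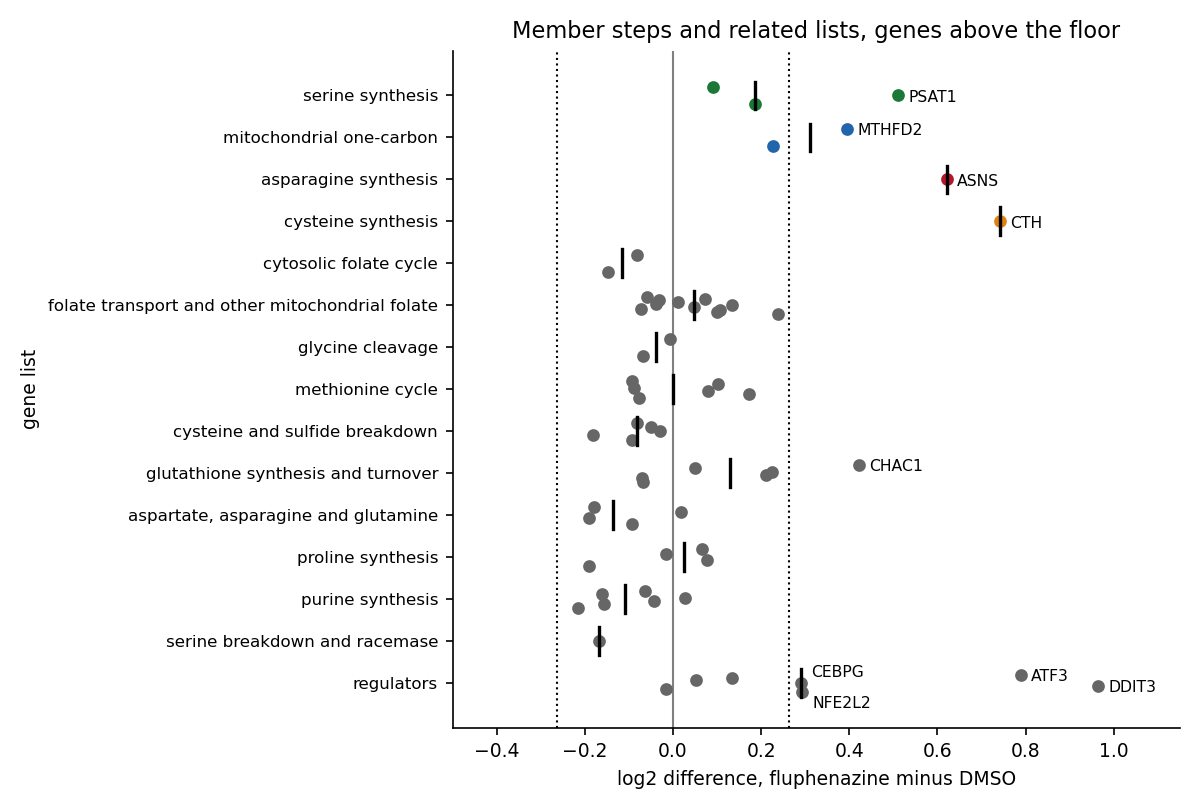
Log2 difference, fluphenazine minus DMSO (horizontal axis), of each gene above the floor in the 4 member steps (coloured), the 10 related lists and the regulators (grey), by list (vertical axis). Black bars are list medians and dotted lines mark 1.2-fold; PSAT1, MTHFD2, ASNS, CTH, CHAC1 and 4 regulators lie beyond the upper line and no gene lies beyond the lower one.

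Regulators linked to these genes were read alongside them. The RNA of ATF4 itself, which is controlled largely through translation, had 12.24 with fluphenazine and 12.10 with DMSO, a difference of 0.13. Of the 7 regulators, all above the floor, 4 were at least 1.2-fold higher, beside 4.84% of genes: DDIT3 (CHOP) at 0.96, ATF3 at 0.79, NFE2L2 (NRF2) at 0.29 and the ATF4 partner CEBPG at 0.29. CEBPB was at 0.05 and MYC at -0.02. The 3 probe sets of ATF3 ran from 0.14 to 0.79 and those of NFE2L2 from 0.06 to 0.29, while both of CEBPG lay between 0.29 and 0.30. DDIT3, ATF4, CEBPB and MYC rest on 1 probe set each. These arrays hold RNA only, so ATF4 protein was not measured.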

How the data were processed

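RNA of PC3 cells was measured on 2 Affymetrix arrays, 1 per group. The submitters' processing notes list RMA, Affymetrix Expression Console 1.4 and Transcriptome Analysis Console 3.1, without saying what each did. The authors' deposited log2 signals span 1.60 to 14.28. The sorted columns differ by at most 0.13, so differences are relative to the other genes on the array. Of 47693 probe sets, the platform annotation of 2016 names 1 gene for 37151, several for 1668 and none for 8874, controls included. Only probe sets with 1 gene were assigned. Gene identifiers gave current symbols for 18354 of 18392 genes, and 38 kept the older symbol.

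A gene was read by its brightest probe set, and members also probe set by probe set. The text names all members, their cytosolic counterparts with the paralogue MTHFD2L, and the regulators. From each related list it names the genes at 1.2-fold or else the one with the largest difference. Other genes were named after their values were seen (GCLC, GCLM, GLDC, MAT1A, BHMT, CSAD, FTCD, and the cell type markers singled out). The members and lists were chosen with earlier results of these data known. No test was run, since each group has 1 array, and the number of arrays limits the precision. Alternatives were 3 scalings (array median, limma 3.58.1 quantile normalization in R 4.3.3, and loess), means over probe sets, other floors, folds of 1.1 and 1.5, and leaving out each member. The gene-level steps were run on simulated data with less noise than the spread between probe sets of a gene here. That run checks the code and not the calls made on these arrays. Python 3.11.15, numpy 2.4.6, pandas 2.3.3, statsmodels 0.14.6 and matplotlib 3.10.9 were used. Of the related genes, 9 were not analysed here.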

Additional observations from a re-analysis of the deposited data

Results flagged for a closer look

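Outside the gene comparison, 2 probe sets that name MTHFD1L together with 2 transcribed pseudogenes held signal well above that of the probe sets naming MTHFD1L alone, and both were higher with fluphenazine. One had 9.21 with fluphenazine and 9.04 with DMSO, a difference of 0.17. The other had 6.89 with fluphenazine and 6.74 with DMSO, a difference of 0.15. Neither can be assigned to MTHFD1L from the annotation. Another such probe set names PHGDH together with MZT2A and MZT2B and had 10.90 with fluphenazine and 11.06 with DMSO, a difference of -0.15.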

How the results depend on the processing

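The 3 other scalings left the members nearly as they were. CTH was at 0.75 under each and ASNS lay between 0.61 and 0.63. PSAT1 lay between 0.51 and 0.52 and MTHFD2 between 0.39 and 0.40. The deposited columns already had nearly the same distribution, with a median gap of 0.007 between sorted values. The array median and quantile scalings could therefore change little and say little about dependence on the processing. The choice of probe set mattered more. With all probe sets of a gene averaged, dim ones included, the floor was set anew and 8 members, CBS among them, lay above it. The median of these members was 0.18 and 3 were at least 1.2-fold higher, while ASNS was at 0.16, PSAT1 at 0.33 and PSPH at 0.01. With only the probe sets above the floor averaged, an alternative chosen after seeing the data, the median was 0.33, 4 members were at least 1.2-fold higher and ASNS was at 0.62. At 1.5-fold 2 member genes and 3 of 13 member probe sets were higher, beside 0.283% of all genes and 0.314% of all probe sets above the floor. At 1.1-fold 6 member genes and 9 member probe sets were higher, beside 16.6% and 16.7%, and 1 member probe set was lower, beside 19.4%. Without a floor 8 of 23 member probe sets were at least 1.2-fold higher, beside 9.35% of all probe sets, and 3 were at least 1.2-fold lower, beside 10.1%. The median of the cytosolic folate cycle was 0.25 without a floor, against -0.11 with it. Near 0, the medians of folate transport (-0.03) and proline synthesis (-0.02) changed sign with probe sets averaged, and that of the methionine cycle (-0.08) without a floor. Leaving out 1 member at a time gave medians of 0.31 to 0.45 and 3 or 4 members at least 1.2-fold higher. None of the 7 members above the floor changed sign under any of these alternatives. Under the floor, 2 members did with probe sets averaged: ALDH1L2 went from 0.44 to -0.04 and MTHFD1L from 0.08 to -0.10. The arrays carry no replicate, so the spread between cultures is unknown for every value, and the dim probe sets of MTHFD1L, ALDH1L2 and CBS limit what can be read of those genes. No paired analysis was possible because each group has 1 array.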

Other observations

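Some genes of the related lists that lay under the floor had differences about as wide as that of CTH, the widest among the members at 0.74. GLDC, the decarboxylase of glycine cleavage, had 4.60 with fluphenazine and 5.33 with DMSO on its only probe set, a difference of -0.73. MAT1A, the liver form of methionine adenosyltransferase, had 4.75 with fluphenazine and 4.05 with DMSO, a difference of 0.69. FTCD, which hands one-carbon units from histidine breakdown to folate, differed by 0.75 on its brightest probe set, while its 6 probe sets ran from -0.28 to 0.75. These genes were named after their values were seen, and 24.1% of all genes under the floor lay past 1.2-fold in one direction or the other.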
